A study of Mus musculus with 30 samples.

Results

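Mitochondrial ribosomal protein genes were located against the replication initiation zones of mouse embryonic stem cells. The genes were chosen by symbol: every protein-coding gene named Mrpl or Mrps followed by a number on chromosomes 1 to 19, which gave 78 of 20558 protein-coding genes, 49 of them Mrpl and 29 Mrps. The rule itself uses symbols and positions only, although these genes were picked for description with earlier results of these data known. The zones came from 1 OK-seq library of wild-type E14TG2a cells, a long-established line, kept in 2i/LIF medium (LIF with a GSK3 and a MEK inhibitor) and given 10 µM of the thymidine analogue EdU for 2 min. The series as a whole asked how old and new histones reach the daughter DNA strands, in wild-type cells and in MCM2-2A histone-binding mutants; its other 29 samples, the mutants included, were not analysed here.

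In OK-seq, the strand of the sequenced Okazaki fragments gives the direction in which replication forks move. Where leftward and rightward forks part, an initiation zone was listed, with a breakpoint bin of 1 kb and an edge on either side. The list held 2844 zones and gave positions only, with no read counts. The depth of the library is therefore unknown, a single library gives no replicate error, and no test was made: the genes are described by counts and medians beside the same values over all protein-coding genes. The list holds no expression values, so the cell type could not be checked against its markers.

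Mitochondria keep a ribosome of their own, which translates the few proteins encoded in mitochondrial DNA, all of them parts of the oxidative phosphorylation machinery. Its RNAs come from the mitochondrial genome, but its proteins are encoded in the nucleus, made in the cytosol and imported. Mrpl genes encode proteins of the large subunit, where peptide bonds form, and Mrps genes those of the small subunit, where messenger RNA is read. Some are descended from bacterial ribosomal proteins and keep their numbers, and others were added in the mitochondrial lineage. The symbols do not match the structure everywhere: the products of Mrps18a and Mrps30 sit in the large subunit of the mammalian mitoribosome, and the product of Mrps36 is a subunit of the 2-oxoglutarate dehydrogenase complex.

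Mitochondrial ribosomal protein genes lay at initiation zones about as often as protein-coding genes in general. An end of the gene lay inside a zone for 29 of the 78 members (37.2%, Wilson 95% interval 27.3 to 48.3%), against 32.4% of all protein-coding genes. With a margin of 20 kb around the zone the count was 33 members (42.3%), against 38.5%. Both backgrounds fell within the interval of the members' share, an interval that treats genes as independent and covers counting error only. The median member had its nearer end 114 kb from a breakpoint, and the quartiles were 30.2 and 205.6 kb, against a median of 129 kb for all protein-coding genes with quartiles of 38.4 and 303 kb. Far members were present too. More than 300 kb separated 13 members (16.7%) from any zone, against 20.3% of all protein-coding genes.

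**Figure D1:**
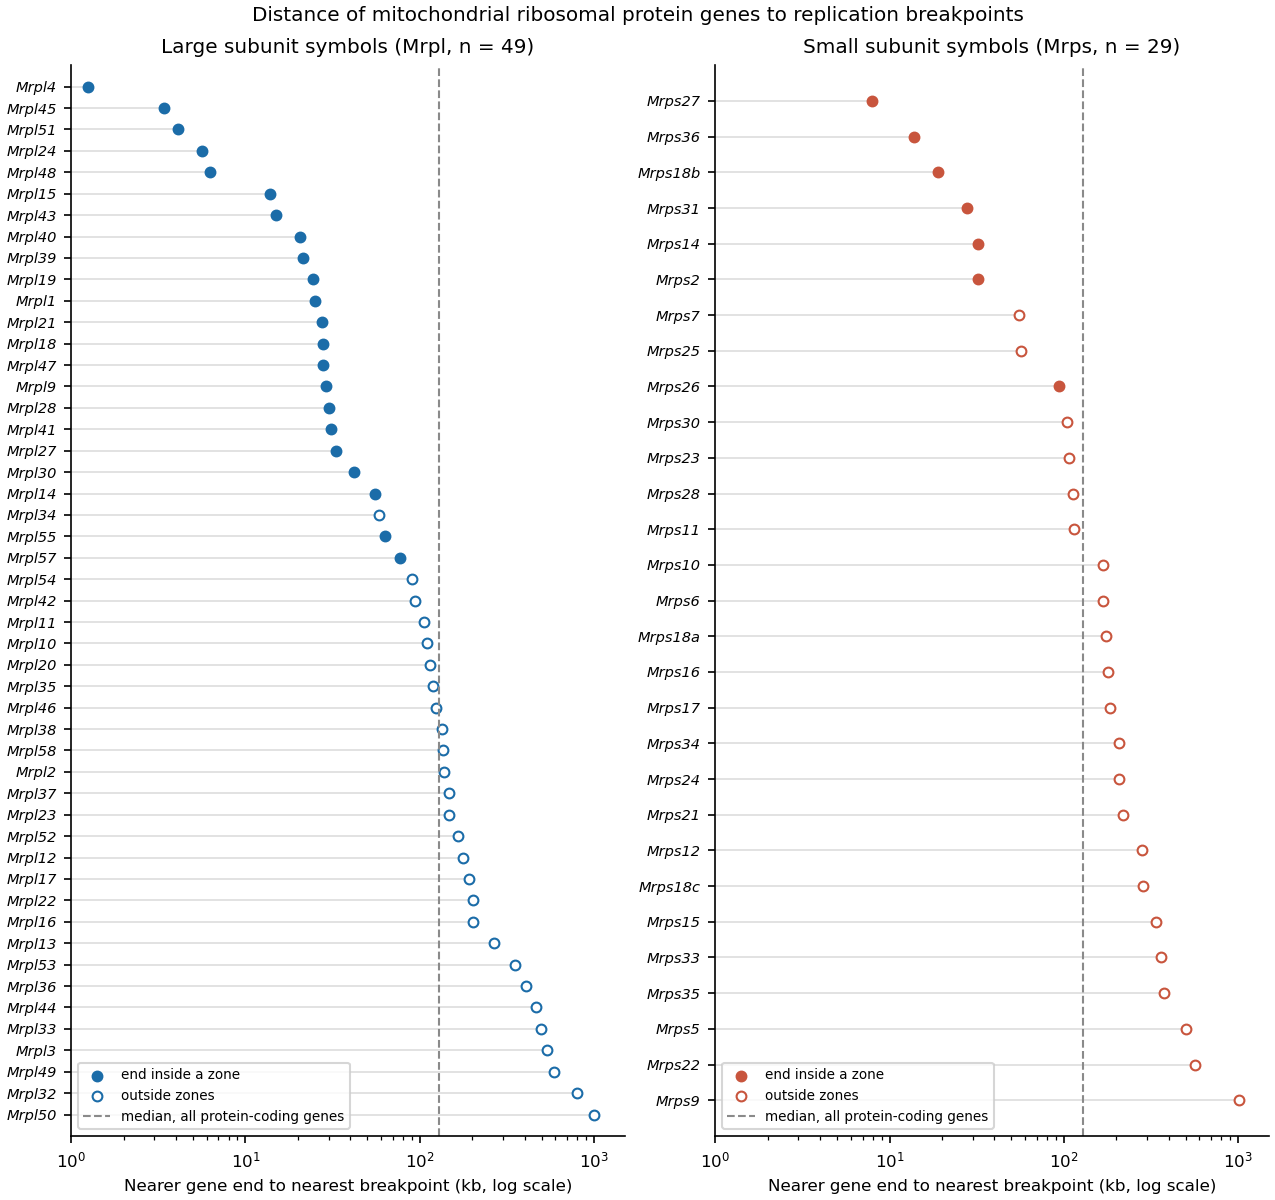
Distance from the nearer gene end to the nearest breakpoint (kb, log scale) for each of the 49 Mrpl genes on the left and the 29 Mrps genes on the right. Filled points have an end inside a zone and open points do not; the dashed line is the median of all protein-coding genes, 129 kb. Distances run from 1.25 kb for Mrpl4 to 1014 kb for Mrps9.

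The share inside zones was higher for genes of the large subunit than for those of the small subunit, by a margin that counting error could span. Of 49 Mrpl genes, 22 had an end inside a zone (44.9%, Wilson 95% interval 31.9 to 58.7%), against 7 of 29 Mrps genes (24.1%, 12.2 to 42.1%). The intervals of the shares overlap, and the difference of 20.8 percentage points carries an interval of -1.45 to 39.0 points. All protein-coding genes, at 32.4%, lay between the subunits. The median distance to a breakpoint was 94.6 kb for Mrpl genes and 168 kb for Mrps genes. In the class from 100 to 300 kb from a zone there were 7 Mrpl genes (14.3%) and 10 Mrps genes (34.5%), whereas beyond 300 kb the shares were alike, at 16.3% and 17.2%. With Mrps18a and Mrps30, both outside zones, counted where their products sit, the difference was 17.2 points. Grouped by descent, the shares lay closer together. Among 32 genes not assigned to a bacterial family here, 13 were inside a zone (40.6%), and among 46 genes so assigned 16 were (34.8%). The assignment went by number, and Mrps24 and Mrpl47 were counted with the bacterial families, to which their proteins belong. It may be incomplete, and the 13 include Mrps36.

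Mrpl4 was the member closest to a breakpoint and the only member with a breakpoint in its body (1 of 78, 1.28%, against 4.02% of all protein-coding genes). Its protein lines the tunnel through which the nascent peptide leaves the ribosome. The gene lies at chr9:21001252-21008839 (GRCm38, the build of the mm10 zone list), inside a zone of 76 kb from 20965001 to 21042000. Its end was 1.25 kb from the middle of the breakpoint bin. Zone widths given here are the listed sizes, which cover both arms and leave out the 1 kb breakpoint bin that the coordinates include. Members are short, with a median length of 7.69 kb against 17.6 kb for all protein-coding genes, and background genes in the same classes of length held a breakpoint in 2.62% of cases.

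A further 5 members had an end within 10 kb of a breakpoint. Mrpl45, whose protein holds the ribosome at the inner membrane beside the exit tunnel, lay at chr11:97314923-97329920 in a zone of 133 kb, with an end 3.42 kb right of the breakpoint. Mrpl51 (chr6:125192200-125194392), a large subunit protein without a bacterial counterpart, had its end 4.11 kb left of a breakpoint. Mrpl24 (chr3:87918131-87923450), another protein near the exit tunnel, followed at 5.63 kb and Mrpl48 (chr7:100545779-100608301) at 6.28 kb, both to the right. Mrps27 (chr13:99344767-99415562), a pentatricopeptide repeat protein of the small subunit, was the nearest Mrps gene, at 7.94 kb. These 6 members made up 20.7% of the members inside zones, against 23.8% within 10 kb among all genes inside zones.

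The start regions of the 4 members whose start site lay nearest to a breakpoint are given because transcription begins there closest to where forks part. No start window was used for Mrpl4 or Mrpl15, and Mrpl48 and Mrps27 begin at their far ends. Also given are those of 3 members because they begin back to back with another gene. The choice of the 3 was made after their values were seen. Each runs from 250 bases before to 50 bases after the start, 5′ to 3′ on the strand of the member, from RefSeq (GRCm38.p6). Capitals mark the ETS core CCGGAAG, bound by factors such as GABPA, and the YY1 core AANATGGC, on either strand. Mrpl45 is chr11:97315466-97315765 (+), Mrpl51 chr6:125191950-125192249 (+), Mrpl24 chr3:87919294-87919593 (+) and Mrps36 chr13:100744610-100744909 (-), with starts 4.22, 6.30, 7.04 and 13.8 kb from a breakpoint. Of the pairs, Mrps11 is chr7:78782881-78783180 (+) beside Mrpl46, Mrpl21 is chr19:3282792-3283091 (+) beside Ighmbp2, and Mrpl40 is chr16:18876588-18876887 (-) beside Hira.
Mrpl45: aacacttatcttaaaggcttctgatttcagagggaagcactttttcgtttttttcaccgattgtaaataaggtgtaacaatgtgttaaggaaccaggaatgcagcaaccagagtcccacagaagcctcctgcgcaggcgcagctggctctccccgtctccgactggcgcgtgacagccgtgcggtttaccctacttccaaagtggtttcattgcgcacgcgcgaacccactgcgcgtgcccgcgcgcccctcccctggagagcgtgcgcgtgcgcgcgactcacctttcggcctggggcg
Mrpl51: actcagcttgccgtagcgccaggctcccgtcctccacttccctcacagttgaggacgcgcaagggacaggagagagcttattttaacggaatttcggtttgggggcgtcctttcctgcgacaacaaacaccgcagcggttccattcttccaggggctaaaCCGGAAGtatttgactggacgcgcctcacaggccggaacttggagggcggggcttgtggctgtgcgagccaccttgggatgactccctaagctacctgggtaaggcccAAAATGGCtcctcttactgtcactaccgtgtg
Mrpl24: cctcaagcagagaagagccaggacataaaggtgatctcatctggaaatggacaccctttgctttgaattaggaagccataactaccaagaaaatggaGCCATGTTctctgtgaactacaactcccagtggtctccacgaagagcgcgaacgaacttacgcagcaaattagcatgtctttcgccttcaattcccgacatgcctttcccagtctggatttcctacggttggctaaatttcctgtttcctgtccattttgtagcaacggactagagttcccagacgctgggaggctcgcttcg
Mrps36: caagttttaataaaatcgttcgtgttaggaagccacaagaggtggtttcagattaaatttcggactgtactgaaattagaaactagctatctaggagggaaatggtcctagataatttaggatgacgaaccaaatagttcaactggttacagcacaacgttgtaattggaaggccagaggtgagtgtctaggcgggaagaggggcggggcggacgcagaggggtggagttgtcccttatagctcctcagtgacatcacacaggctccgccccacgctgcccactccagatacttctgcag
Mrps11: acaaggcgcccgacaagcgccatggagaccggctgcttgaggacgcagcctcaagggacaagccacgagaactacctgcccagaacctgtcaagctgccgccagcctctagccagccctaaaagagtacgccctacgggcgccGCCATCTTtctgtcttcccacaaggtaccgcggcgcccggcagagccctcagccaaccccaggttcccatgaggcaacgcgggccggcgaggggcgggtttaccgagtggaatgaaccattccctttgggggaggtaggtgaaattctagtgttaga
Mrpl21: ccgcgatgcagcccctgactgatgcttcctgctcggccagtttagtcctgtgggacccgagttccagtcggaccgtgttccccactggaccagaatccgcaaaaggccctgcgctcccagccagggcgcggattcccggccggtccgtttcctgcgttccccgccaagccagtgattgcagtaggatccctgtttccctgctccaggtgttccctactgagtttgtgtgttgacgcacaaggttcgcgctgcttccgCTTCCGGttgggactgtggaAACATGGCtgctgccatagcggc
Mrpl40: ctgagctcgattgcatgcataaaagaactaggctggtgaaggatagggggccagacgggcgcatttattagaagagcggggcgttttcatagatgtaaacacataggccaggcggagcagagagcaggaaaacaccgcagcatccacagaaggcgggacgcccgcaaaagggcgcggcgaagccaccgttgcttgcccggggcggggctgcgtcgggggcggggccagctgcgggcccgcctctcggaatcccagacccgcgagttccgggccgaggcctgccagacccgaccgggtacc
In these windows Mrpl51 and Mrpl21 held both an ETS and a YY1 core, Mrpl24 and Mrps11 a YY1 core, and Mrpl45, Mrps36 and Mrpl40 neither. Mrpl45, with 27 CG dinucleotides, and Mrpl40, with 28, had more of them than the other windows shown.

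Most of the members inside zones lay neither at the breakpoint nor at an edge. Measured at the end that lay deeper in the zone, 4 of the 29 were within 10 kb of an edge, namely Mrps18b, Mrpl14, Mrpl57 and Mrps26. The outer end of Mrpl21 also lay within 10 kb of an edge, and the long genes Mrpl1, Mrpl48 and Mrps27 crossed an edge. A nearer end 10 to 40 kb from the breakpoint was found for 18 members. They were, in order of distance, Mrpl15 (13.75 kb), Mrps36 (13.8 kb), Mrpl43 (15.1 kb), Mrps18b (19.1 kb), Mrpl40 (20.5 kb), Mrpl39 (21.3 kb), Mrpl19 (24.6 kb), Mrpl1 (25 kb), Mrpl21, Mrpl18, Mrps31 and Mrpl47 (27.7 to 28.0 kb), Mrpl9 (28.8 kb), Mrpl28 (30.003 kb), Mrpl41 (31.0 kb), Mrps14 and Mrps2 (both 32.3 kb) and Mrpl27 (33.3 kb). Only 5 lay more than 40 kb away, namely Mrpl30 (42.2 kb), Mrpl14 (55.2 kb), Mrpl55 (63.4 kb), Mrpl57 (77.4 kb) and Mrps26 (94.1 kb). The median was 27.7 kb over these members and 23.0 kb over all protein-coding genes with an end inside a zone. Mrpl15 (chr1:4773198-4785750) shared its zone of 105 kb with 1 other gene, whereas Mrps36 (chr13:100735940-100744659) and Mrpl43 (chr19:45005014-45006442) lay in zones of 199 and 183 kb that held 7 and 8 genes. Mrps18b (chr17:35910380-35916440) lay in a zone of 62 kb whose left arm was 19 kb long. As a share of the arm between breakpoint and edge, the median position was 35.0% for members and 41.7% for all genes inside zones. By the nearer end, members lay left of the breakpoint in 19 cases and right of it in 10, on coordinates that carry no orientation of their own. Mrpl4, which spans its breakpoint, is counted on the left. All genes inside zones lay on the left in 49.5% of cases.

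**Figure D2:**
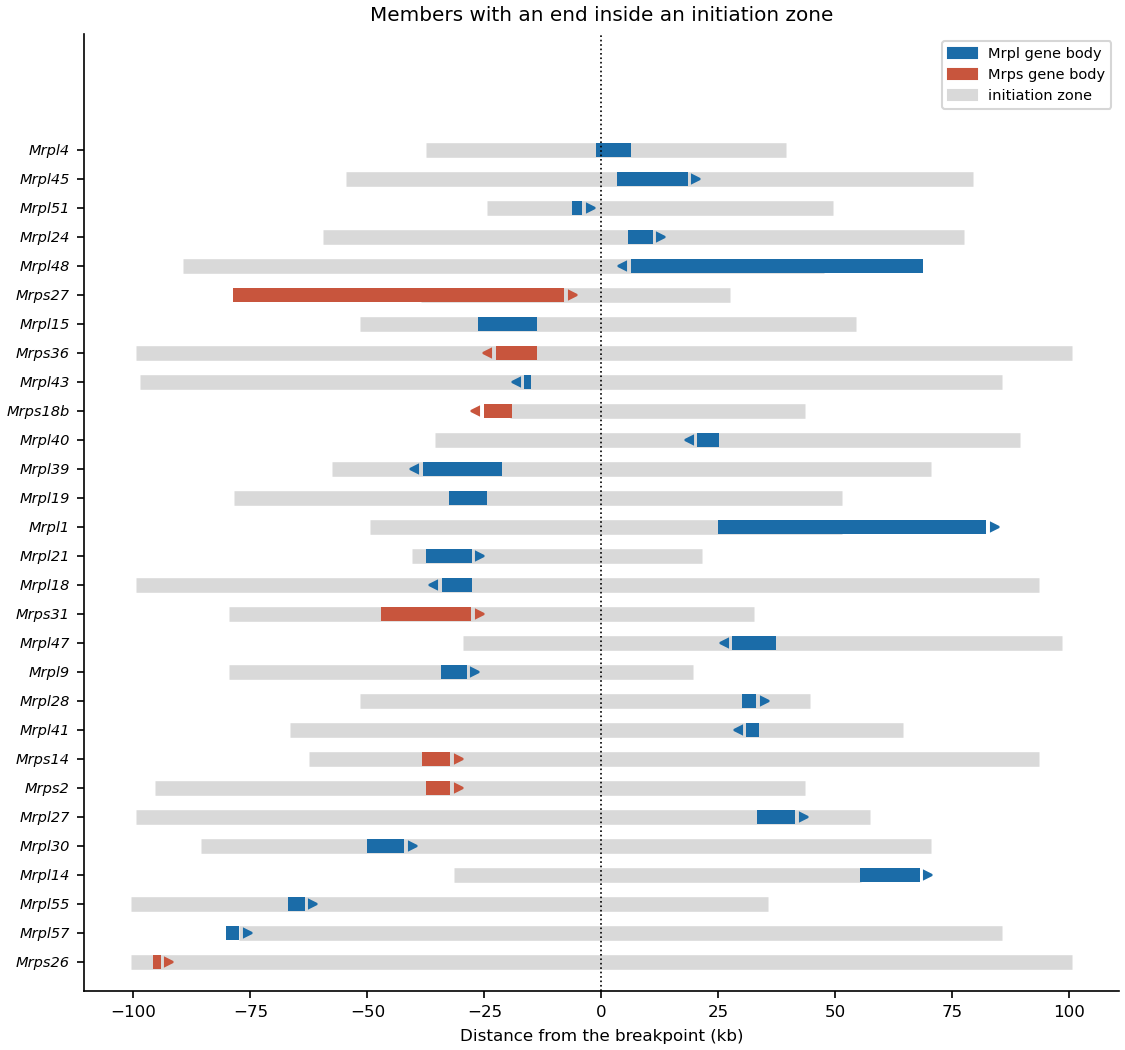
The 29 members with an end inside an initiation zone, ordered by distance to the breakpoint, with position in kb from the breakpoint on the horizontal axis. Grey bars are zones, coloured bars gene bodies, and arrowheads give the direction of transcription for the members whose strand was used. Mrpl4 spans the breakpoint, and Mrps26 lies 94.1 kb left of it in a zone of 200 kb.

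Wholly inside a zone lay 23 members (29.5%), against 18.7% of all protein-coding genes. Members are short, and background genes in the same length classes lay wholly inside a zone in 24.9% of cases. The 6 members that crossed an edge were the long genes Mrpl1, Mrpl48 and Mrps27, of 57.2, 62.5 and 70.8 kb, and the short genes Mrpl57, Mrps18b and Mrpl14, which sat on the edge itself. Mrpl57, Mrpl14 and Mrps18b reached into their zones by only 0.086, 0.278 and 0.439 kb, less than the 1 kb bin of the list, so their place inside is not resolved. With ends less than 1 kb inside an edge not counted, the share inside zones was 33.3% of members, against 32.0% of all protein-coding genes. On the other side of the edge, Mrpl20 lay 13.9 kb, Mrps11 14.0 kb, Mrps25 19 kb and Mrpl34 19.2 kb outside a zone. Mrpl20 and Mrps11 both faced an arm that reached 100 kb, the longest arm in the list, so a longer zone there may not have been recorded.

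No zone held 2 members, so the 29 members inside occupied 29 separate zones. These zones were 61 to 200 kb wide with a median of 129 kb, against 112 kb over all 2844 zones. A wide zone catches more genes; when every zone was counted once for each protein-coding gene with an end in it, the median width was 125 kb. Members always shared their zone with other genes. The zones held an end of 2 to 10 protein-coding genes, with a median of 5 over members and 4 over all genes inside zones. The member was the gene nearest to the breakpoint in 4 zones (13.8%), those of Mrpl4, Mrpl45, Mrpl51 and Mrpl19, against 34.4% among all genes inside zones. The latter share includes genes alone in their zone, which are nearest by definition, and no member was alone. It also depends on how many genes a zone holds, so these shares are not directly comparable.

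The remaining 45 members, besides the 4 within 20 kb, were spread over a wide range. From 20 to 100 kb outside a zone lay 15 members (19.2%, against 17.4% of all protein-coding genes): Mrpl46 (23.9 kb), Mrps7 (32.1 kb), Mrpl11 (51.2 kb), Mrpl58 (52.3 kb), Mrps28 (56.1 kb), Mrpl54 (59.1 kb), Mrps23, Mrpl42, Mrps30, Mrpl2 and Mrpl35 (66.1 to 78 kb), Mrpl10 (86.6 kb), Mrps10 (94.6 kb), Mrpl23 (98.5 kb) and Mrpl37 (99.9 kb). Between 100 and 300 kb lay 17 members (21.8%, against 23.8%). They were Mrpl52, Mrpl38, Mrps6, Mrps18a, Mrpl12, Mrps34, Mrpl17, Mrps16, Mrpl16, Mrps24, Mrps17, Mrpl22, Mrpl13, Mrps21, Mrps12, Mrps18c and Mrps15, in that order, from 101 kb to 295 kb. Mrpl12 makes the flexible stalk protein that recruits translation factors, and Mrps12 a protein of the decoding centre; they lay 130.2 and 220.2 kb from a zone.

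More than 300 kb from any zone lay 13 members, 8 Mrpl and 5 Mrps genes. Mrpl3, whose protein reaches toward the peptidyl transferase centre, lay 491 kb from the nearest edge. The 5 farthest were Mrps9 (chr1:42851233-42905683) at 913 kb, Mrpl50 (chr4:49512597-49521083) at 897 kb, Mrpl32 (chr13:14610301-14613037) at 696 kb, Mrpl49 (chr19:6053630-6057755) at 539 kb and Mrps22 (chr9:98588730-98601679) at 516 kb. Mrpl32 encodes a large subunit protein that the m-AAA protease must trim before assembly. Mrps35, Mrps33, Mrpl53, Mrpl36, Mrpl44, Mrpl33 and Mrps5 lay between, from 317 to 403 kb. Proteins of a single particle were thus encoded from 1.25 to 1014 kb from a breakpoint.

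By chromosome, members lay on 17 of the 19 chromosomes analysed. Chromosome 11 carried the most, 11 members of which 3 were inside a zone, against 32.5% of the protein-coding genes of that chromosome. Chromosome 17 had 8 members with 4 inside, against 34.7%, and chromosome 6 had 7 with 2 inside, against 27.7%. All 4 members on chromosome 4 lay outside zones, against 36.8% of its protein-coding genes with an end inside. Each of these counts is small, and differences among chromosomes were not tested.

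The members' share inside zones varied with the number of genes around them. With 10 to 19 other protein-coding genes within 250 kb, 13 of 26 members were inside a zone (50%), against 30.8% of all protein-coding genes in such surroundings. With 20 or more such neighbours only 2 of 15 were inside (13.3%), namely Mrpl24 and Mrps18b, against 27.4%. Members with 0 to 4 neighbours were inside in 6 of 19 cases (31.6%, against 34.8%) and those with 5 to 9 in 8 of 18 (44.4%, against 34.4%). When the background was weighted to the members' classes of gene number it was 31.9%, close to the unweighted 32.4%. Mrps18b, Mrpl14 and Mrpl57, whose place inside is not resolved, are counted as inside in the classes of 20 or more, 10 to 19 and 5 to 9 neighbours. These classes hold few members each, and the differences among them were not tested.

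Members with an opposite-strand start of another gene within 1 kb had a higher share inside zones than the members without, but the intervals overlap. The size of the difference depended on the 3 members at a zone edge, on the limit of distance and on the part of the gene scored. Such a start could lie upstream of the member's own start or overlap with the member. A start on the opposite strand within 1 kb was found for 25 of the 69 members whose start site was used (36.2%, Wilson 95% interval 25.9 to 48.0%), against 9.64% of protein-coding genes. Partners were sought among the 16457 protein-coding genes whose start site was used. A neighbour with no start site used could therefore not be found. Of those 25 members 14 had an end inside a zone (56%, 37.1 to 73.3%), against 12 of the 44 members with no such start (27.3%, 16.3 to 41.8%). Over all protein-coding genes the corresponding shares were 40.5% and 31.3%, a difference of the same sign, although paired genes there share their place and are not independent. Among the 14 were Mrpl57, Mrps18b and Mrpl14, the 3 members less than 1 kb inside an edge; without them 11 of 25 were inside (44%) and the difference was 16.7 points. With them the difference within the members was 28.7 points, with an interval of 4.83 to 49.2. This difference fell to 10.3 points when only starts within 0.5 kb counted, and to 21.7 when only upstream starts counted. It was 15 with gene midpoints, 17.8 when zones narrower than the median zone were dropped, and 29.4 with a limit of 2 kb. Among the 14, Mrps27, Mrpl48, Mrpl57 and Mrpl14 had their start outside the zone and reached it with the other end. All 12 members inside with no such start had their own start inside. Scored by start site the difference is therefore smaller, and its value is not given here. The arrangement of opposite-strand starts was looked at after the values were seen. The counts were 12 of 18 against 7 of 25 genes in the large subunit, and 2 of 7 against 5 of 19 in the small subunit.

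**Figure D3:**
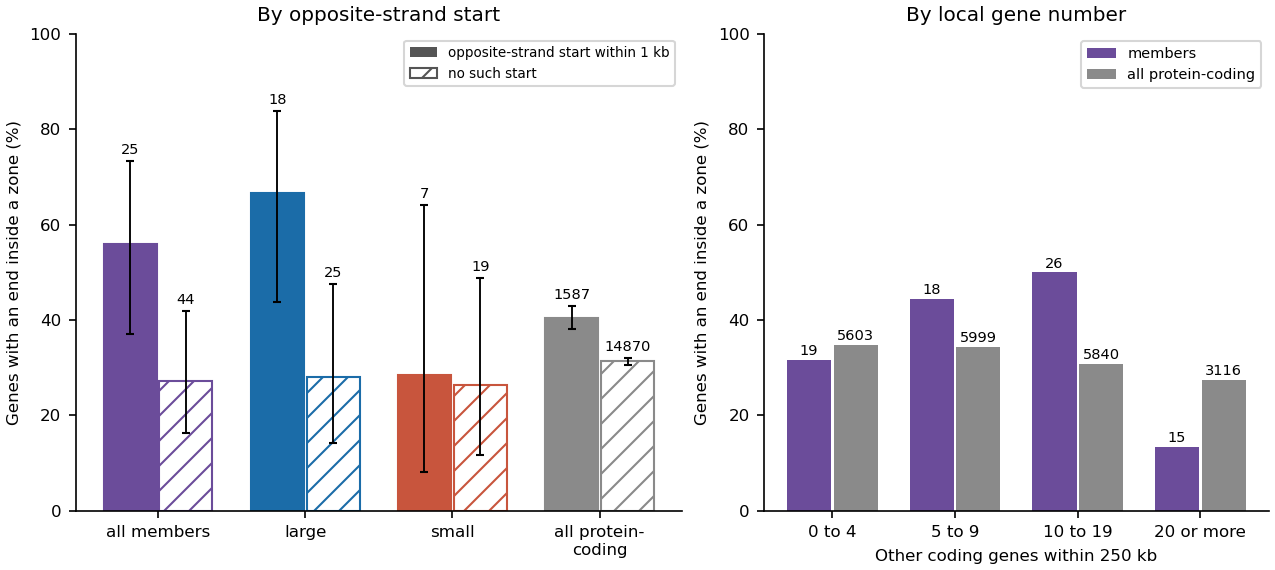
Left, share of genes with an end inside a zone (%) for genes with an opposite-strand start within 1 kb (filled) and without (hatched), for all members, both subunits and all protein-coding genes; error bars are Wilson 95% intervals and numbers above bars are genes. Right, the same share by number of other protein-coding genes within 250 kb, members beside all protein-coding genes. Members reach 56% with an opposite-strand start, and 13.3% where 20 or more genes are near. Both shares count members that lie less than 1 kb inside a zone edge.

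The partners of members with an end inside a zone came from many cell functions. The partners themselves were not located against zones. The starts of Mrps27, Mrpl48, Mrpl57 and Mrpl14, next to those of their partners, lay outside the zone that the member's other end reached. Mrpl40 shared its start region with Hira, the gene of a chaperone that deposits histone H3.3, with 113 bp between the starts. Mrpl27 was paired with Eme1, a subunit of a structure-specific DNA endonuclease (48 bp), Mrpl51 with the condensin gene Ncapd2 (614 bp), Mrpl57 with the kinetochore gene Ska3 (76 bp), Mrpl21 with Ighmbp2 (32 bp) and Mrpl18 with the chaperonin gene Tcp1 (238 bp). Others were mitochondrial themselves. Mrpl47 faced Ndufb5, a subunit of complex I (308 bp), Mrps27 faced the mitochondrial RNA-binding protein gene Ptcd2 (108 bp), and Mrpl43 and Twnk, the helicase of mitochondrial DNA, overlapped at their starts by 779 bp. The partners of Mrpl30, Mrpl41, Mrpl48, Mrps18b and Mrpl14 were Mitd1, Pnpla7, Rab6a, Ppp1r10 and Tmem63b. Among these, Mrpl48 and Rab6a overlapped at their starts by 715 bp. For members outside zones the pairs included Mrps12 with Sars2, the mitochondrial seryl-tRNA synthetase, and Mrpl32 with the proteasome gene Psma2. Mrpl46 and Mrps11 were the only members paired with each other, 41 bp apart, and with 23.9 and 14.0 kb to the same zone edge, neither reached it. Mrpl58, which releases stalled peptides, and Mrps7 flanked a single zone on chromosome 11 (115465001 to 115572000) from opposite sides, 52.3 kb left and 32.1 kb right of it.

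Inside zones, 15 members were transcribed toward the breakpoint and 11 away from it. Strand was available for these 26 members, none of which held the breakpoint, and the share that ran away from the breakpoint, the direction in which forks leave it, was 42.3% (Wilson 95% interval 25.5 to 61.1%), against 60.0% of such protein-coding genes. Among background genes in the same length classes the share was 53.8%, and both values lie within the members' interval. Mrpl45 and Mrpl24 ran away from their breakpoints, and Mrpl51, Mrpl48 and Mrps27 toward them. Over all protein-coding genes, those with an opposite-strand start also ran away less often, at 43.7%, against 62.2% of those without; among members the shares were 35.7% (5 of 14) and 50% (6 of 12).

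Across the 69 start regions used, those printed above among them, the ETS and YY1 cores were found more often than over all start regions. The ETS core was present in 24 (34.8%), against 12.3% of 16457 protein-coding start regions, and the YY1 core in 21 (30.4%), against 6.65%. Cytosolic ribosomal protein genes held the ETS core in 37.9% and the YY1 core in 20.7% of 58 start regions, so the ETS share was not higher in the members than there. The complete palindromic NRF1 site was found in 3 (4.35%), against 1.37%. NRF1 and GABPA are known as activators of nuclear genes for mitochondrial proteins. Between members inside and outside zones the ETS core was alike, with 34.6% of 26 and 34.9% of 43, and the YY1 core was found in 26.9% and 32.6%. The CCAAT box was in the start regions of 7 of 26 members inside (26.9%) and 20 of 43 outside (46.5%). Over all protein-coding start regions it was in 39.1%. TATAAA was in 0 of 26 and 4 of 43. The grouping is by gene ends, and the 26 include Mrps27, Mrpl48, Mrpl57 and Mrpl14, whose starts lay outside zones. The GC box GGGCGG was in 49.3%, against 47.3%, and the median number of CG dinucleotides was 21 over members, against 14 over all start regions. These are matches of letters on both strands, some of them overlapping, and not measured binding.

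**Figure D4:**
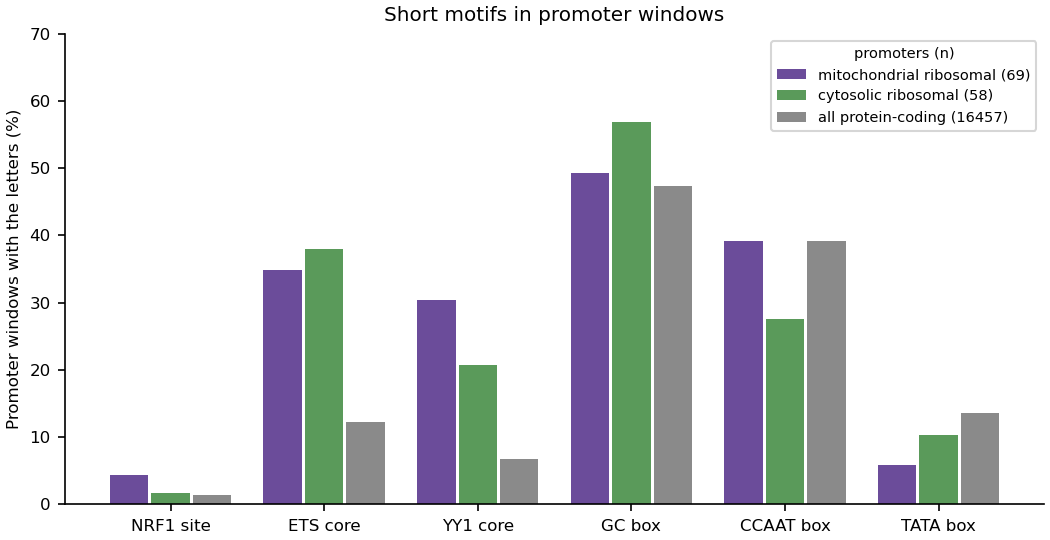
Share of 300-base promoter windows (%) that hold each short motif on either strand, for mitochondrial ribosomal, cytosolic ribosomal and all protein-coding genes. The ETS core was in 34.8% of mitochondrial ribosomal, 37.9% of cytosolic ribosomal and 12.3% of all windows, and the YY1 core in 30.4% of mitochondrial ribosomal windows, 20.7% of cytosolic ribosomal windows and 6.65% of all windows.

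Set beside other large complexes, the members' share inside zones lay within 2 percentage points of those of oxidative phosphorylation and proteasome genes and below that of the cytosolic ribosome. Inside zones lay 37.2% of the members, against 36.9% of 84 oxidative phosphorylation subunit genes, 38.5% of 39 proteasome subunit genes and 56.4% of 78 cytosolic ribosomal protein genes. The median distance to a breakpoint was 114 kb for members, against 101, 98.4 and 39.2 kb for these lists in the same order. The members' Wilson interval of 27.3 to 48.3% and that of the cytosolic list, 45.4 to 66.9%, overlap by a small margin. Cytosolic genes were shorter, with a median of 3.18 kb, and had a start on the opposite strand in 13.8% of cases. That share was 36.2% for members, against 28.4% for oxidative phosphorylation genes, 27.3% for the other genes of mitochondrial translation and 15.6% for proteasome genes, with no test of these differences.

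**Figure D5:**
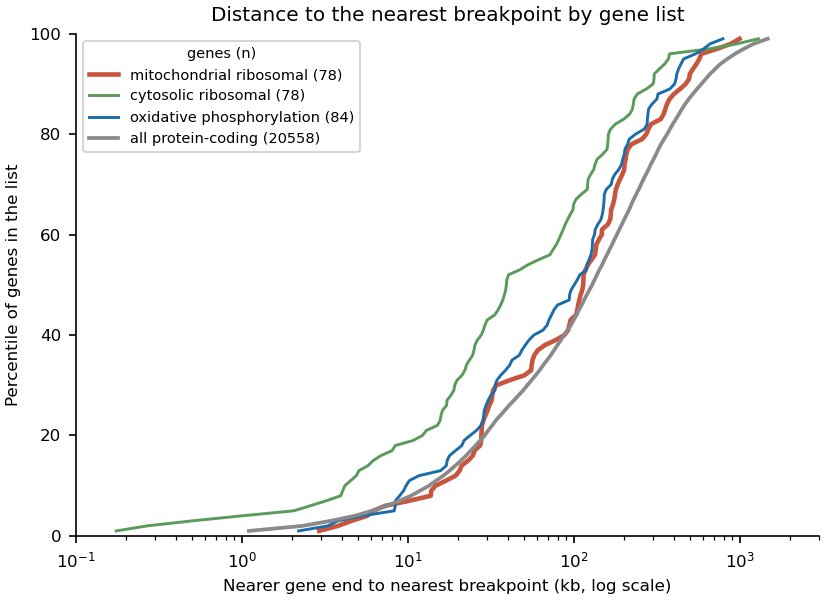
Percentile of genes within a list (vertical axis) by distance from the nearer gene end to the nearest breakpoint (kb, log scale). The mitochondrial ribosomal curve (median 114 kb) runs near that of oxidative phosphorylation genes (101 kb) and that of all protein-coding genes (129 kb), and the cytosolic ribosomal curve (39.2 kb) lies to the left of them.

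The other genes of mitochondrial translation gave a mixed picture. Of 56 such genes in 4 lists, 24 had an end inside a zone (42.9%), against 32.4% of all protein-coding genes. Translation factors had the highest share, with 9 of 15 inside. Mtif3, an initiation factor, Mrrf, the ribosome recycling factor, and Mtrf1l, a release factor, lay 3.65, 5.78 and 6.38 kb from their breakpoints. The release factor gene Mtrf1, 826 kb from a zone, was the most distant. Of 19 genes for ribosome assembly and rRNA modification 7 were inside. The small subunit assembly factors Eral1 and Rbfa and the helicase gene Dhx30 were nearest, with 1.88, 3.88 and 7.88 kb to a breakpoint, and Rmnd1 lay 742 kb from any zone. Among 17 tRNA synthetase genes 6 were inside, led by Lars2, Aars2 and Ears2 at 0.175, 3.02 and 15.3 kb, and Wars2 lay 675 kb from any zone. The values for Lars2 and Gadd45gip1 are below the 1 kb bin of the list. Of 5 mitoribosome proteins known by other symbols, Gadd45gip1 (0.982 kb) and Chchd1 (45.5 kb) were inside, Aurkaip1 and Ptcd3 were 42.3 and 146 kb from a zone, and Dap3, at 208 kb, was farthest.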

How the data were processed

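The authors deposited, for 1 wild-type OK-seq library, a list of 2844 breakpoint bins of 1 kb. Per the file headers, each has a minimum and a maximum and the other values are distances in bp between them; no read counts or scores were given, so the depth is unknown. Per the submitters' processing notes the build was mm10 and SAMtools, Picard 2.8.2, Bowtie, BWA 0.7.13, Trim Galore 0.4.2 and bcl2fastq were used; the sources used here do not give how each was used or how zones were called. While the labels' protocols describe a nucleosome pull-down for this library, its title names OK-seq, and the assay is taken from the title.

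Genes came from the RefSeq table of GRCm38.p6; 333 genes on scaffolds were left out. Start sites and strands came from RefSeq promoter windows, which covered 69 of 78 members and 16457 protein-coding genes; the outermost start was used. A gene counted as inside a zone when either end lay in it. Distances were computed in Python 3.11.15 with pandas 2.3.3 and SciPy 1.17.1, with code tested on simulated data. Background shares were weighted by classes of gene number within 250 kb (4 classes) or of length (10 classes). The named genes were all members, with detail for the 10 nearest to a breakpoint, the 5 farthest from a zone, those holding a breakpoint or sharing a zone, and the 3 on either side of a zone edge; in the 4 pathway lists, the 3 nearest and the 1 farthest. Members and lists were chosen with earlier results of these data known. Opposite-strand starts, transcription direction, the grouping by bacterial family and the exclusion of ends under 1 kb from a zone edge were added after the values were seen.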

Additional observations from a re-analysis of the deposited data

How the results depend on the processing

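Under alternative settings, 59 values stayed within the range that counting error over the members gives the value reported and 5 moved, all when zones narrower than the median zone were dropped. With the wider zones alone 23.1% of members had an end inside (20.1% of all protein-coding genes) and 25.6% lay within 20 kb (23.4%); 20.5% lay wholly inside (12.8%) and 0% held a breakpoint (2.06%). The median distance to a breakpoint became 376 kb, above the 323 kb of all protein-coding genes, whereas with all zones it lay below; the cause was not tested. At a limit of 50 kb the members' share was 44.9%, against 45.4%. The excess over background inside zones was 4.76 points, and 5.24 to 8.61 points with backgrounds matched on gene number, length or both. The difference between subunits ranged from 14.1 to 25.6 points. No paired analysis was possible because 1 library was analysed, and no replicate could be left out.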

Other observations

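Of the 6 pseudogenes whose symbols match the same pattern, none had an end inside a zone, against 32.4% of all protein-coding genes. The share over pseudogenes in general is not given here. Mrps36-ps2 was nearest, at 27.0 kb from a zone edge, followed by Mrpl23-ps1 at 47.1 kb and Mrpl48-ps at 115 kb. Mrpl27-ps, Mrps36-ps3 and Mrps36-ps1 lay 210.2, 250 and 266 kb away. Their parent genes Mrps36, Mrpl27 and Mrpl48 all had an end inside a zone, and Mrpl23 lay 98.5 kb from one. With 6 pseudogenes from 4 parents this is a list of values, not a comparison.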
